A study of Homo sapiens with 24 samples.

Results

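Desmosome components were described here as 10 genes, the plakophilins PKP1, PKP2 and PKP3, the plakin DSP, the plakoglobin gene JUP, the desmogleins DSG2 and DSG3, the desmocollins DSC2 and DSC3, and PERP. They were selected on their baseline level and on their response to Ocoxin in each cell line, including the different signs of PKP1, and each was matched by symbol to 1 Ensembl identifier, so 10 of the 58051 genes counted are covered. Since baseline levels and the Ocoxin contrasts were used for the choice, the values of these 10 genes are a description and carry no p-value. RNA of adherent cells came from 4 human cancer cell lines, the colorectal adenocarcinoma line SW620 (COAD), the pancreatic adenocarcinoma line BxPC-3 (PAAD), the prostate adenocarcinoma line LNCaP (PRAD) and the triple-negative breast cancer line HCC-70 (TNBC). For each line there were 3 control libraries and 3 libraries of cells exposed for 48 h to Ocoxin, a nutritional supplement made of vitamins, minerals, amino acids and extracts of plants, at a dilution of 1:700 in COAD and TNBC, 1:500 in PAAD and 1:50 in PRAD. Cells were grown with 10% serum and exposed in medium with 1% serum. Each cancer type is represented by a single cell line at a single dilution, so line and dilution cannot be told apart. The labels do not say that replicates came from separate cultures, so any p-value below measures the spread between these libraries, which may be technical.

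Desmosomes are buttons of adhesion that tie the keratin filaments of neighbouring epithelial cells together. Desmogleins and desmocollins are the cadherins that bridge the gap between cells, plakoglobin and the plakophilins bind their tails inside the cell, and desmoplakin (DSP) anchors that plaque to keratin. PKP1, DSG3 and DSC3 belong mainly to stratified and basal epithelia, PKP2, DSG2 and DSC2 are found in simple epithelia as well, and PERP is a tetraspan membrane protein of desmosomes that was first described as a p53 target.

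The 4 cadherin genes lie next to each other on chromosome 18 between positions 30990008 and 31549008 (hg38), DSC3 and DSC2 on the minus strand and DSG3 and DSG2 on the plus strand. The other members are spread over chromosomes 1 (PKP1), 6 (DSP and PERP), 11 (PKP3), 12 (PKP2) and 17 (JUP). Upstream sequences were available in RefSeq (GRCh38.p14) for 8 of the 10 genes, all but PKP2 and PKP3. The bases before the start are printed, 5′ to 3′ on the strand of the gene, for PKP1, whose fold change had different signs in different lines, for DSP and DSC3, which were higher with Ocoxin in TNBC, and for DSG3, which had the most negative fold change in PAAD. They cover chr1:201283256-201283451 (plus strand), chr6:7541421-7541574 (plus strand), chr18:31042816-31042992 (minus strand) and chr18:31447491-31447740 (plus strand), and end where the gene begins in RefSeq or in the count tables, whichever comes first. Capitals mark matches, on either strand, to an E2-box (CACCTG) or a GC box (GGGCGG). Matches that overlap run together.
PKP1: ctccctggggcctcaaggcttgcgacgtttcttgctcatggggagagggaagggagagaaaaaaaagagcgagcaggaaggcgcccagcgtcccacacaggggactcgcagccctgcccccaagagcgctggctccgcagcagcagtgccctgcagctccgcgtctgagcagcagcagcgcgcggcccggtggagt
DSP: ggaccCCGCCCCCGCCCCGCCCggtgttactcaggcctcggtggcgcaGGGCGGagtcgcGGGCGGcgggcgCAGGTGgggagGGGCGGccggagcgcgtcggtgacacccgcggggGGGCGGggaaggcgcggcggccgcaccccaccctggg
DSC3: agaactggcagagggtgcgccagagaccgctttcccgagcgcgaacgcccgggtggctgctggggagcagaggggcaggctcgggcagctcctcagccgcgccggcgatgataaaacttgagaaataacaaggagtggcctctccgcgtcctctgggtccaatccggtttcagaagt
DSG3: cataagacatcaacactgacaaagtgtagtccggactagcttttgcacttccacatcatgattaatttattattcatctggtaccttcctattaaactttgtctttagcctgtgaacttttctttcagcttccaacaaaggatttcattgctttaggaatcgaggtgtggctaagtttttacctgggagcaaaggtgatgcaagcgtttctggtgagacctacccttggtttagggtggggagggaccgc
In the whole window of 250 bases before the RefSeq start, DSP held 2 E2-box matches and 7 GC-box matches, PKP1 held 1 GC-box match outside the printed stretch, and neither motif was found for DSC3 or DSG3. Over the 8 genes, an E2-box match occurred in DSP, JUP, DSG2 and DSC2, and in 17.49% of all 35116 promoters. A GC box occurred in 6 of the 8, against 42.64% of all promoters. JUP and DSC2 had a further start, so the 8 genes had 10 windows. A gene was counted if any of its windows matched, whereas the percentages are per promoter. PERP alone held an AP-1 motif (TGANTCA, 6.57% of promoters), and none held the core of the antioxidant response element (TGACNNNGC, 10.91%) or the grainyhead palindrome (AACCGGTT, 0.12%). GC content of the windows was 42.8% for DSG3, 60.4% for DSC3, 67.6% for PKP1 and 78.0% for DSP.

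Total counts per library were 25160757 to 39009959 in COAD, PAAD and TNBC and 9063968 to 9520969 in PRAD. PRAD was counted in a separate run with other settings and no PRAD gene exceeded 0.995 counts per exonic base, whereas the highest gene of the other libraries reached 34.1 to 49.0, so PRAD levels were not compared with those of the other lines. Within COAD, control libraries were deeper (31265452 to 34397801 counts) than Ocoxin libraries (25160757 to 29670036 counts), and the part of depth in the COAD values was not tested. The epithelial markers EPCAM, KRT8, KRT18 and CDH1 were present in every line. Markers listed for each line were mostly present, but CDX1 (0.00537 RPKM) and LGALS4 (0.229 RPKM) were close to 0 in COAD controls and ONECUT1 was listed at 0 in PAAD controls. Not all lists were specific to their line. The basal breast list (KRT5, KRT14, KRT17, EGFR) summed to 1705 to 1940 RPKM in PAAD controls and 532 to 602 in TNBC. The pancreatic duct list (KRT7, KRT19, SOX9, ONECUT1) summed to 865 to 921 RPKM in TNBC controls and 799 to 954 in PAAD. Of the 3 receptors that define triple-negative breast cancer by their absence, PGR was at 0 and ESR1 at 0.518 RPKM in TNBC controls. ERBB2 was at 24.8 there, above COAD (10.8) and PAAD (13.03). The summed level of 3 leukocyte markers stayed at or below 1.17 RPKM and that of 3 fibroblast markers at or below 8.55 RPKM in all libraries. The 3 endothelial markers moved with treatment in PAAD, from 11.6 to 12.9 RPKM summed in control libraries to 18.2 to 20.6 with Ocoxin, mostly through the vascular cadherin CDH5. They moved the other way in PRAD, from 7.05 to 7.94 RPKM in controls to 4.04 to 5.39 with Ocoxin, mostly through VWF (7.56 and 4.48 on average), and in TNBC at sums of at most 0.314 RPKM. Their part in the values below was not tested.

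Baseline levels were compared as RPKM, that is, counts per kilobase of exon scaled to library size with TMM factors, and are given as mean ± SD of 3 control libraries. PERP was the most abundant of the 10 transcripts in COAD (97.6 ± 5.53), PAAD (243 ± 7.45) and TNBC (162 ± 5.42), and ranked 321st, 118th and 172nd among all genes. DSG2, JUP and DSP followed PERP in PAAD (156 ± 2.46, 135 ± 11.5 and 82.2 ± 8.92) and in TNBC (129 ± 3.56, 125 ± 0.642 and 90.8 ± 6.37). In COAD the order was different, with DSP (54.0 ± 7.52) and JUP (43.1 ± 0.676) ahead of PKP3 (28.9 ± 2.11), DSG2 (23.5 ± 0.332) and PKP2 (19.4 ± 0.659). The plaque proteins DSP and JUP were thus ahead of all plakophilins and desmocollins in these 3 lines. PRAD controls had DSG2 (57.0 ± 2.36) and JUP (50.2 ± 2.46) as the highest members and PERP (26.2 ± 0.762) only in position 6. In PRAD libraries DSG2 reached 0.541 and JUP 0.492 counts per exonic base, where no gene exceeded 0.995. Whether high levels were compressed in PRAD, and with them its ranks, paralog shares and fold changes, was not tested.

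The genes of stratified epithelia separated the lines most. PKP1 was at 48.9 ± 2.35 RPKM in TNBC and 47.3 ± 2.63 in PAAD, whose libraries overlapped, and at 0.272 ± 0.0303 in COAD, 174 times less than in PAAD. DSC3 reached 51.8 ± 2.74 RPKM in TNBC and 36.7 ± 2.54 in PAAD, and had no count in any COAD control library. DSG3 was higher in PAAD (37.3 ± 1.27 RPKM) than in TNBC (21.5 ± 2.84), and the COAD controls held 0, 0 and 2 counts. These 3 transcripts were also the lowest members in PRAD, where PKP1 was at 1.09 ± 0.137 RPKM, DSC3 at 0.902 ± 0.232 and DSG3 at 0, 1 and 1 counts.

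Among the more widespread members, DSC2 was 10.2 times higher in TNBC (18.3 ± 0.672 RPKM) than in PAAD (1.79 ± 0.222) and lowest in COAD (0.278 ± 0.00838). PKP2 was the only one with its highest level in COAD, 1.75 times that of PAAD (11.03 ± 0.308) and 2.40 times that of TNBC (8.08 ± 0.119). PKP1 and PKP2 thus had opposite orders over the 3 lines, although TNBC and PAAD overlapped for PKP1. PKP3 was highest in PAAD (57.1 ± 5.36), while TNBC (30.0 ± 2.35) and COAD overlapped and exchanged places when library totals replaced TMM scaling. JUP and DSP overlapped between PAAD and TNBC and were lower in COAD, 2.90 times below TNBC for JUP and 1.52 times below PAAD for DSP. DSG2 and PERP descended from PAAD over TNBC to COAD with no overlap between lines.

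**Figure D1:**
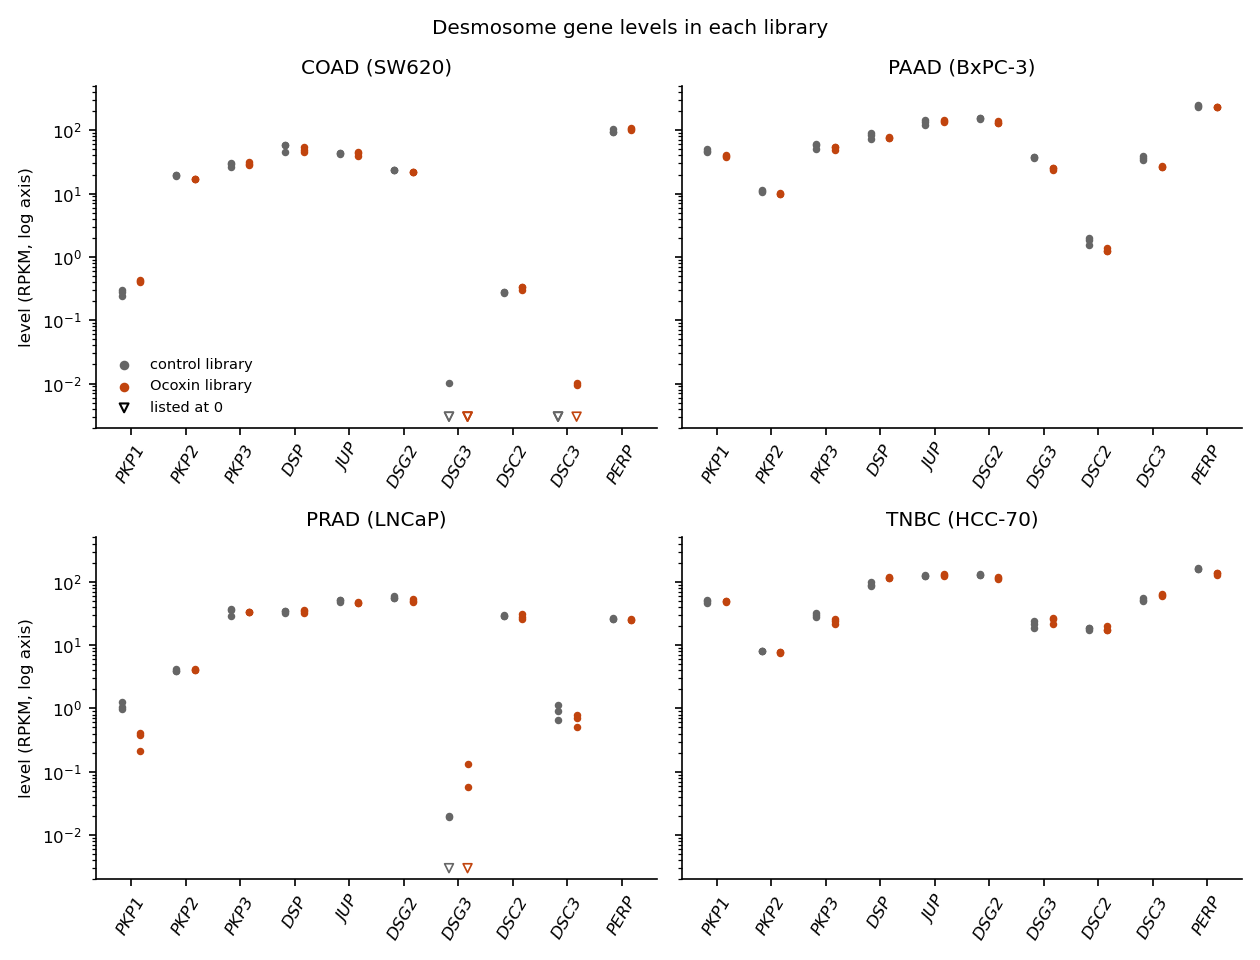
Level of each desmosome gene in every library, in RPKM on a log axis, with one panel per cell line. Grey points are control libraries, orange points Ocoxin libraries, and open triangles at the bottom libraries in which the gene was listed at 0. PKP1, DSG3 and DSC3 sit above 15 RPKM in PAAD and TNBC and below 1 RPKM in COAD. In PRAD, which was counted in a separate run and is not compared in level, they are the lowest members.

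Within a family, the paralog that dominated depended on the line. PRAD shares come from the separately counted libraries, and what this did to them was not tested. PKP3 made up 59.5% ± 2.26 of plakophilin RPKM in COAD controls, 49.4% ± 2.18 in PAAD and 86.9% ± 1.31 in PRAD, but PKP1 made up 56.2% ± 1.22 in TNBC. PKP2 contributed 40.0% ± 2.18 in COAD and between 9.30% and 10.3% in the other lines. DSG2 accounted for 80.7% ± 0.390 of the desmoglein pair in PAAD and 85.7% ± 1.35 in TNBC, and for 99.98% or more in COAD and PRAD. The desmocollins split the lines most sharply, since DSC3 accounted for 95.4% ± 0.308 of the pair in PAAD and 73.9% ± 1.26 in TNBC, while DSC2 accounted for all counts in COAD controls and 97.0% ± 0.706 in PRAD.

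With Ocoxin, the leading paralog of each family stayed the same in every line, and smaller shares moved. The DSG3 share was 19.3% ± 0.390 in PAAD controls and 15.7% ± 0.587 with Ocoxin, without overlap. In TNBC the DSG3 share went the other way, 14.3% ± 1.35 in controls and 17.4% ± 1.22 with Ocoxin, again without overlap. PKP1 was 56.2% ± 1.22 of TNBC plakophilins in controls and 60.9% ± 1.22 with Ocoxin, with a similar level of PKP1 itself and a lower level of PKP3. In PRAD the PKP1 share was 2.81% ± 0.201 in controls and 0.883% ± 0.285 with Ocoxin. The DSC3 share in PAAD was 95.4% in both groups, so both desmocollins were lower to a similar degree.

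**Figure D2:**
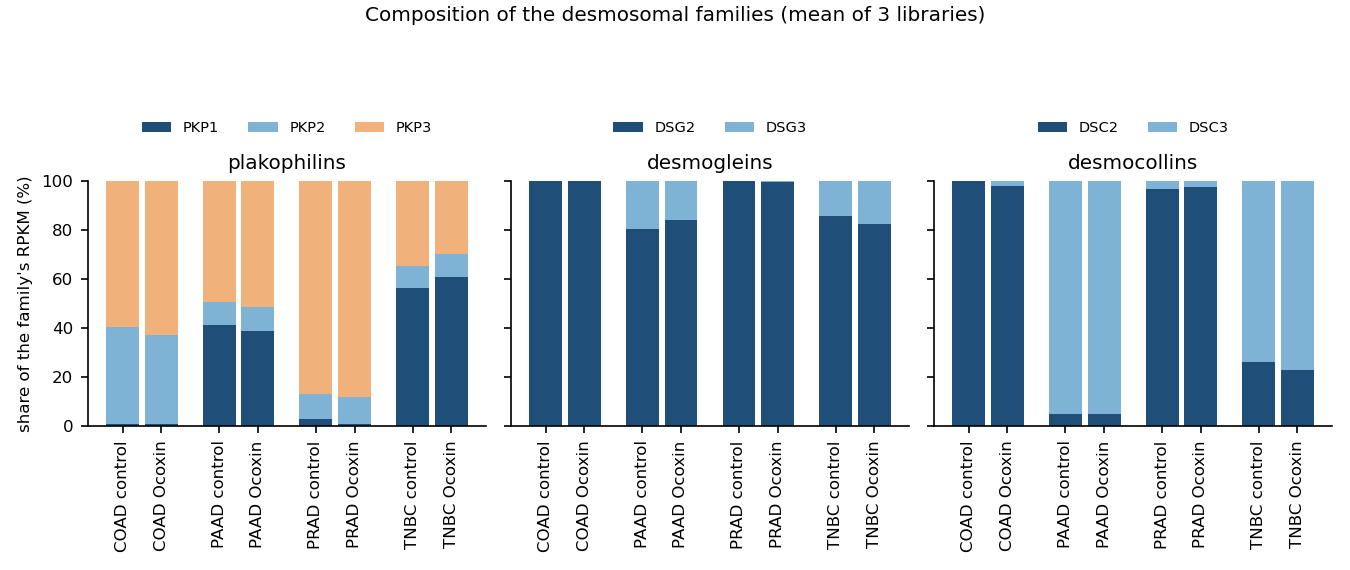
Share of each paralog in the summed RPKM of its family, as the mean of 3 libraries per bar, from 0 to 100%. The 3 panels show plakophilins, desmogleins and desmocollins in control and Ocoxin libraries of each line, and DSC3 fills most of the bar in PAAD and TNBC but almost none of it in COAD and PRAD.

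The response to Ocoxin was estimated within each line as a log2 fold change (Ocoxin over control) with its standard error (SE), from the edgeR quasi-likelihood fit to all genes of that line. A gene was called altered at an adjusted p below 0.05 over all genes tested. Of the 40 combinations of gene and line, 37 passed the filter on low counts, and 12 of these were called, 10 lower and 2 higher with Ocoxin. The 3 combinations that did not pass were DSG3 in COAD and PRAD and DSC3 in COAD. JUP was called in no line, PKP1, DSG2 and DSC3 in 2 lines each, and the other 6 genes in 1 line. Since these contrasts served to choose the genes, the shares of all genes that follow are given beside the counts and nothing is read from them. Because this is bulk RNA of adherent cells, fewer cells that express a gene and less of its RNA per cell cannot be told apart.

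In COAD, 1 of 8 tested members was called, lower, where 2.55% of all 17659 genes were called (1.47% higher and 1.09% lower). In PAAD, 5 of 10 were called and all 5 were lower, where 8.33% of all genes were called (4.72% higher and 3.62% lower). The median log2 fold change of the 10 genes in PAAD was -0.18, against 0.0027 over all genes tested. In PRAD, 1 of 9 tested members was called, lower, where 2.98% of all genes were called (2.40% higher and 0.580% lower). In TNBC, 5 of 10 were called, 2 higher and 3 lower, where 21% of all genes were called (9.65% higher and 11.3% lower), and the median of the 10 genes was 0.02, against 0.0056 over all genes tested.

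Control and Ocoxin levels did not overlap for 4 of 8 members in COAD (19.8% of all genes), 6 of 10 in PAAD (27.6%), 3 of 9 in PRAD (28.7%) and 6 of 10 in TNBC (38.0%). Control and Ocoxin libraries with the same number deviated together in PAAD, PRAD and TNBC. With the replicate number as a block, the calls in PAAD went from 5 to 8 members, all lower (23.1% of all genes), and those in PRAD from 1 to 2, both lower (8.50%). In TNBC the block gave 6 calls, 3 in each direction (33.9%).

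**Figure D3:**
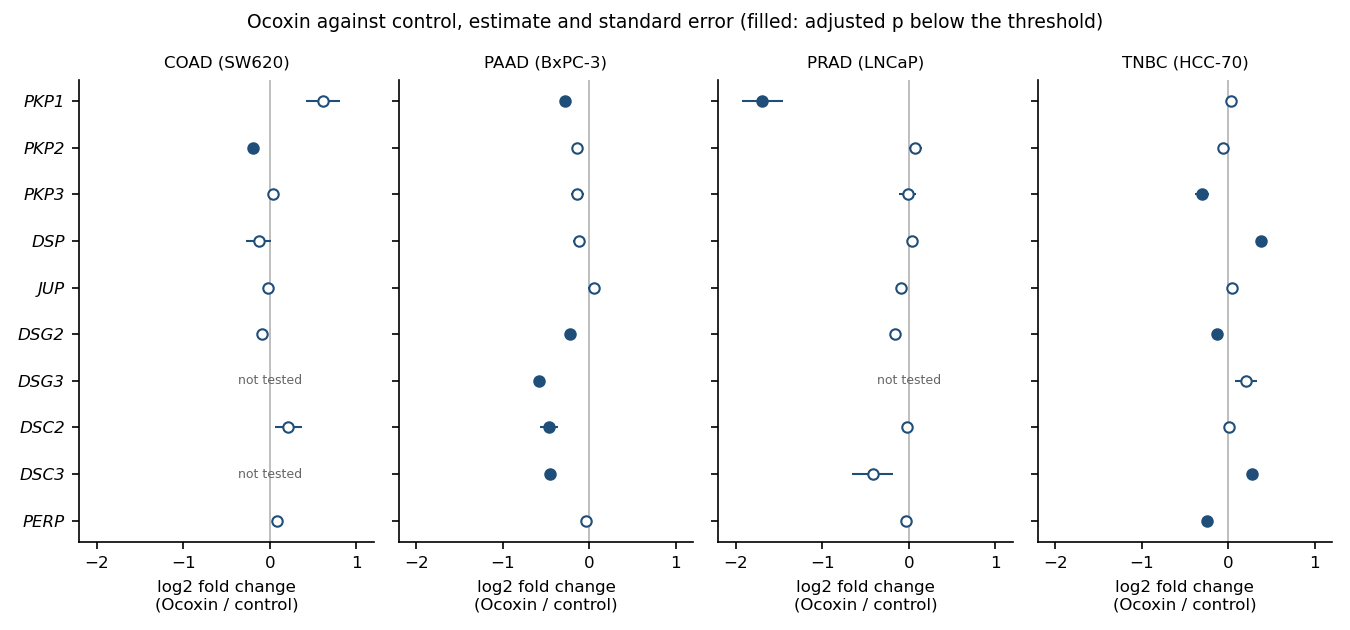
Log2 fold change of Ocoxin over control for each desmosome gene, one panel per cell line. Points are estimates and bars their SE, which are hidden where shorter than the point, and filled points have an adjusted p below 0.05. The filled points lie left of 0 in COAD, PAAD and PRAD and on both sides of 0 in TNBC.

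PKP1, the plakophilin of the suprabasal epidermis that clusters desmosomal cadherins, had the widest range of fold changes. COAD controls were at 0.295, 0.238 and 0.283 RPKM and Ocoxin libraries at 0.424, 0.398 and 0.426, from 56 to 88 counts per library. The groups did not overlap, Ocoxin being higher, with a log2 fold change of 0.61 ± 0.20 (SE) that was not called. In PRAD the direction was the opposite, with 0.974, 1.24 and 1.07 RPKM in controls and 0.407, 0.375 and 0.212 with Ocoxin. PKP1 fell there by 1.69 ± 0.24 on the log2 scale, from 55 to 73 counts per library in controls and 12 to 24 with Ocoxin. It was called, but not without control replicate 2, control replicate 3 or Ocoxin replicate 2. Those fits called only 7, 37 and 3 genes in all, against 508 with every library. In COAD and PRAD the signs of PKP1 therefore differed, each at low counts per library.

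In PAAD and TNBC, where PKP1 was far above its COAD level, its log2 fold change was smaller in size. PAAD controls were at 45.3, 50.3 and 46.4 RPKM and Ocoxin libraries at 37.3, 38.7 and 40.8, all below the lowest control. The log2 fold change was -0.28 ± 0.06, which was called, but not without control replicate 2 or Ocoxin replicate 1. TNBC controls held 51.2, 48.9 and 46.6 RPKM and Ocoxin libraries 50.6, 48.8 and 48.3. These groups overlapped and the log2 fold change was 0.03 ± 0.04.

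**Figure D4:**
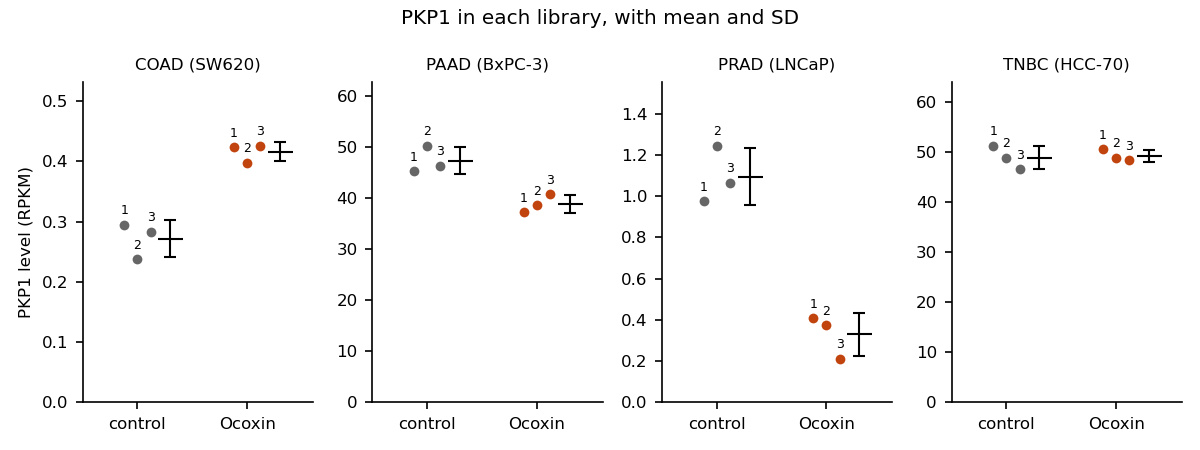
PKP1 level in each library, in RPKM on linear axes from 0 that differ between panels, with the replicate number beside each point and the mean and SD of 3 libraries beside each group. Ocoxin libraries lie above the controls in COAD, below them in PAAD and PRAD, and among them in TNBC.

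PKP2, the plakophilin shared with simple epithelia and heart, was called in COAD only. Controls were at 19.5, 18.6 and 19.9 RPKM and Ocoxin libraries at 16.95, 17.2 and 16.9. It fell by 0.19 ± 0.05 on the log2 scale without overlap, but the call was lost when any single library was left out. The other lines had log2 fold changes of -0.14 ± 0.06 (PAAD, called with the replicate block), 0.08 ± 0.07 (PRAD) and -0.06 ± 0.05 (TNBC), and the groups overlapped only in PRAD.

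PKP3, which binds the widest set of desmosomal partners among plakophilins, fell in TNBC by 0.30 ± 0.08 on the log2 scale. TNBC controls were at 30.2, 32.3 and 27.6 RPKM and Ocoxin libraries at 26.2, 24.3 and 21.5, again without overlap. The call was lost without control replicate 1, control replicate 2 or Ocoxin replicate 2. PAAD had an uncalled -0.14 ± 0.07 (called with the replicate block, and at -0.21 without control replicate 3), COAD 0.04 ± 0.06 and PRAD -0.01 ± 0.10, each with overlapping groups.

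DSP, the linker to keratin filaments, rose in TNBC. Controls were at 97.7, 85.2 and 89.5 RPKM and Ocoxin libraries at 119.7, 114.2 and 114.2, and the lowest Ocoxin library lay well above the highest control. The log2 fold change of 0.37 ± 0.05 was called under every alternative tried. Of the keratins, KRT8 was at 118 RPKM on average in TNBC controls and 80.0 with Ocoxin, and KRT18 at 69.2 and 57.9. Elsewhere DSP differed by -0.13 ± 0.14 in COAD, where control replicate 3 (45.3 RPKM) lay away from the other controls (58.8 and 57.8), by -0.12 ± 0.07 in PAAD and by 0.04 ± 0.05 in PRAD on the log2 scale. All had overlapping groups and none was called. The COAD value was called without control replicate 3 (-0.24), and the PAAD value without control replicate 1 (-0.20) and with the replicate block.

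JUP encodes plakoglobin, the armadillo protein that desmosomes and adherens junctions share. It was the steadiest member, with a log2 fold change of -0.02 ± 0.05 (COAD), 0.05 ± 0.06 (PAAD), -0.09 ± 0.04 (PRAD) or 0.05 ± 0.03 (TNBC). In TNBC the controls were at 125, 126 and 124 RPKM and Ocoxin libraries at 131, 128 and 123. Both groups overlapped in every line. When trends with gene length and GC content were removed PRAD was called, and with the replicate block added to that removal TNBC was called too.

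DSG2, the desmoglein of all desmosome-bearing cells, had a negative fold change in every line. PAAD controls were at 153, 156 and 158 RPKM and Ocoxin libraries at 129.8, 131 and 140.0. It fell there by 0.22 ± 0.05 on the log2 scale without overlap. The PAAD call was lost without control replicate 2, Ocoxin replicate 1 or Ocoxin replicate 2. TNBC controls were at 133, 127 and 126 RPKM and Ocoxin libraries at 117, 118 and 112, a fall by 0.13 ± 0.04 that was not called without control replicate 1 or Ocoxin replicate 1. Groups did not overlap in COAD (-0.09 ± 0.05) or PRAD (-0.16 ± 0.05) either, and neither value was called, though PRAD was with the replicate block. DSG2 shares 171 exonic bases (2.76% of its exons) with the antisense gene DSG2-AS1, which had at most 20 counts in any library.

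DSG3, the desmoglein of basal keratinocytes, gave the largest decrease among members in PAAD. Controls were at 35.9, 38.4 and 37.5 RPKM and Ocoxin libraries at 23.6, 25.8 and 25.4. The log2 fold change was -0.58 ± 0.06, a level 0.67 times that of controls, and it was called under every alternative. TNBC values were 24.2, 21.7 and 18.6 RPKM in controls and 26.3, 25.5 and 21.5 with Ocoxin. These overlapped, at 0.21 ± 0.12, and were called with the replicate block but not without it. COAD held 0 to 2 counts per library and PRAD 0 to 7, too few to test.

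DSC3, the desmocollin of basal layers, was called in opposite directions in PAAD and TNBC. PAAD controls were at 34.4, 36.2 and 39.4 RPKM and Ocoxin libraries at 26.5, 26.4 and 27.1, with a log2 fold change of -0.46 ± 0.06. In TNBC the control libraries held 54.8, 50.9 and 49.6 RPKM and those with Ocoxin 63.3, 62.0 and 60.1, with a log2 fold change of 0.28 ± 0.04. Groups were separate in both lines and both calls held under every alternative. PRAD values overlapped, from 34 to 72 counts per library, at -0.42 ± 0.24, and COAD had 0 to 2 counts.

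DSC2, the broadly expressed desmocollin, fell in PAAD by 0.47 ± 0.10 on the log2 scale. Controls were at 1.55, 1.85 and 1.98 RPKM and Ocoxin libraries at 1.23, 1.25 and 1.40, so its decrease had about the size of that of DSC3 in the same cells at a much lower level. This call was lost without Ocoxin replicate 1 or Ocoxin replicate 2. In COAD the Ocoxin libraries (0.297, 0.340 and 0.335 RPKM) lay above the controls (0.268, 0.281 and 0.284), but at 116 to 132 counts per library the value of 0.22 ± 0.15 was not called. PRAD (-0.02 ± 0.06) and TNBC (0.01 ± 0.05) overlapped.

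PERP fell in TNBC, the line in which DSP and DSC3 rose. Controls were at 167, 162 and 156 RPKM and Ocoxin libraries at 139, 136 and 129, so the highest Ocoxin library lay below the lowest control. The decrease by 0.24 ± 0.04 on the log2 scale was called under every alternative. COAD (0.09 ± 0.05) and PAAD (-0.04 ± 0.05) overlapped, and PRAD (-0.03 ± 0.04) did not overlap but was not called.

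The summed levels of some other marker lists also differed between control and Ocoxin libraries without overlap. The summed level of EPCAM, KRT8, KRT18 and CDH1 in TNBC was 395 to 411 RPKM in controls and 326 to 330 with Ocoxin, all 4 being lower on average. The same 4 genes summed to 127 to 128 RPKM in PRAD controls and 122 to 126 with Ocoxin. KRT7, KRT19, SOX9 and ONECUT1 summed to 865 to 921 RPKM in TNBC controls and 679 to 737 with Ocoxin, mostly through KRT19, with ONECUT1 at or near 0. The basal markers KRT5, KRT14, KRT17 and EGFR summed to 1705 to 1940 RPKM in PAAD controls and 1389 to 1595 with Ocoxin, with the 3 keratins lower and EGFR at 51.6 and 52.1. Beside the higher PKP1 level in COAD, the basal list was higher too, at 5.10 to 5.89 RPKM in controls and 7.38 to 8.52 with Ocoxin, through KRT5 and KRT17, with KRT14 and EGFR near 0. Beside the lower PKP1 in PRAD, the basal list was lower, at 19.4 to 20.4 RPKM in controls and 15.5 to 18.99 with Ocoxin, mostly EGFR and KRT14, with KRT5 and KRT17 near 0. The colon list was higher with Ocoxin in PRAD and TNBC at sums of at most 2.05 RPKM. Their part in the values above was not tested.

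Of the paralogs outside the 10 genes, only PKP4, an armadillo protein of both desmosomes and adherens junctions, was well expressed. PKP4 rose in TNBC from 24.3, 25.2 and 26.1 RPKM in controls to 28.0, 27.3 and 30.1 with Ocoxin (log2 fold change 0.20 ± 0.04, adjusted p = 0.00465, edgeR). It was not called in COAD (0.03 ± 0.05), PAAD (0.08 ± 0.05) or PRAD (-0.09 ± 0.09). DSG1, DSC1 and DSG4, which belong to upper epidermis and hair, stayed at 1.68 RPKM or less in every library, and none of them was called where it could be tested.

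The wider list held 48 genes that were not chosen as members, including those 4 paralogs, plakins, adherens junction and hemidesmosome genes, epithelial transcription and splicing factors and mesenchymal genes. In COAD 1 of 38 tested was called, higher, beside 2.55% of all genes. The median of the list in COAD was -0.05, against -0.0053 over all genes.

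In PAAD 11 of 44 tested were called (22 with the replicate block, 9 higher and 13 lower), beside 8.33% of all genes (23.1% with the block). Of the 11, 5 were higher and 6 lower, and the list median was -0.05. Of 12 adherens junction genes, 5 fell and 1 rose. NECTIN4, an adhesion receptor of the nectin family, went from 11.2, 10.7 and 10.6 RPKM to 7.78, 8.71 and 8.56 (-0.37 ± 0.07, adjusted p = 0.0062, edgeR), and ARVCF, a p120-related catenin, from 5.74, 6.57 and 5.07 to 8.77, 8.12 and 6.92 (0.46 ± 0.10, adjusted p = 0.00949, edgeR). Without Ocoxin replicate 1 the ARVCF call was lost. The differentiation factors KLF4 (0.40 ± 0.06, adjusted p = 0.000505, edgeR) and ELF3 (0.38 ± 0.06, adjusted p = 0.00132, edgeR) rose, KLF4 from 21.2, 22.3 and 20.5 RPKM to 27.4, 28.0 and 28.7. None of the 7 hemidesmosome genes was called in PAAD.

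In PRAD 3 of 41 tested were called, all higher, beside 2.98% of all genes. With the replicate block 6 were called, 4 higher and 2 lower, beside 8.50% of all genes. The list median was -0.01. SNAI2, a repressor that binds E2-boxes, was at 0.386, 0.418 and 0.483 RPKM in controls and 1.48, 1.21 and 0.916 with Ocoxin, at only 8 to 32 counts per library (1.50 ± 0.27, adjusted p = 0.0333, edgeR). ESRP1, an epithelial splicing factor, rose by a log2 fold change of 0.22 ± 0.04 (adjusted p = 0.0327, edgeR). Leaving out 1 library ended the SNAI2 and ESRP1 calls in 5 of 6 cases, all but the case without Ocoxin replicate 3. Those 5 fits called 0.0173% to 1.04% of all genes. DESeq2 did not call SNAI2 (adjusted p = 0.0628).

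In TNBC 15 of 44 tested were called (25 with the replicate block, 9 higher and 16 lower), with a median of -0.05. Of all genes, 21% were called there (33.9% with the block). Of the 15, 4 were higher and 11 lower, beside 9.65% higher and 11.3% lower of all genes. The lower ones included 5 of 12 adherens junction genes and 3 of 7 hemidesmosome genes, among them ITGA6, the laminin-binding integrin chain, from 11.4, 10.5 and 12.3 RPKM to 8.69, 7.93 and 9.15 (-0.39 ± 0.06, adjusted p = 0.00119, edgeR). VIM, the mesenchymal filament protein vimentin, fell from 8.36, 7.33 and 9.22 RPKM to 4.05, 4.08 and 5.05 (-0.90 ± 0.10, adjusted p = 0.000233, edgeR), and OVOL1, an epithelial repressor, from 2.72, 2.55 and 2.98 to 2.05, 1.89 and 1.27 (-0.64 ± 0.16, adjusted p = 0.0151, edgeR). SNAI2 rose in this line too, from 17.4, 16.4 and 11.7 RPKM to 24.4, 23.6 and 22.2 (0.64 ± 0.14, adjusted p = 0.0232, edgeR). The OVOL1 call was lost without control replicate 1, and the SNAI2 call without control replicate 2 or any single Ocoxin library, whereas VIM and ITGA6 kept theirs.

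**Figure D5:**
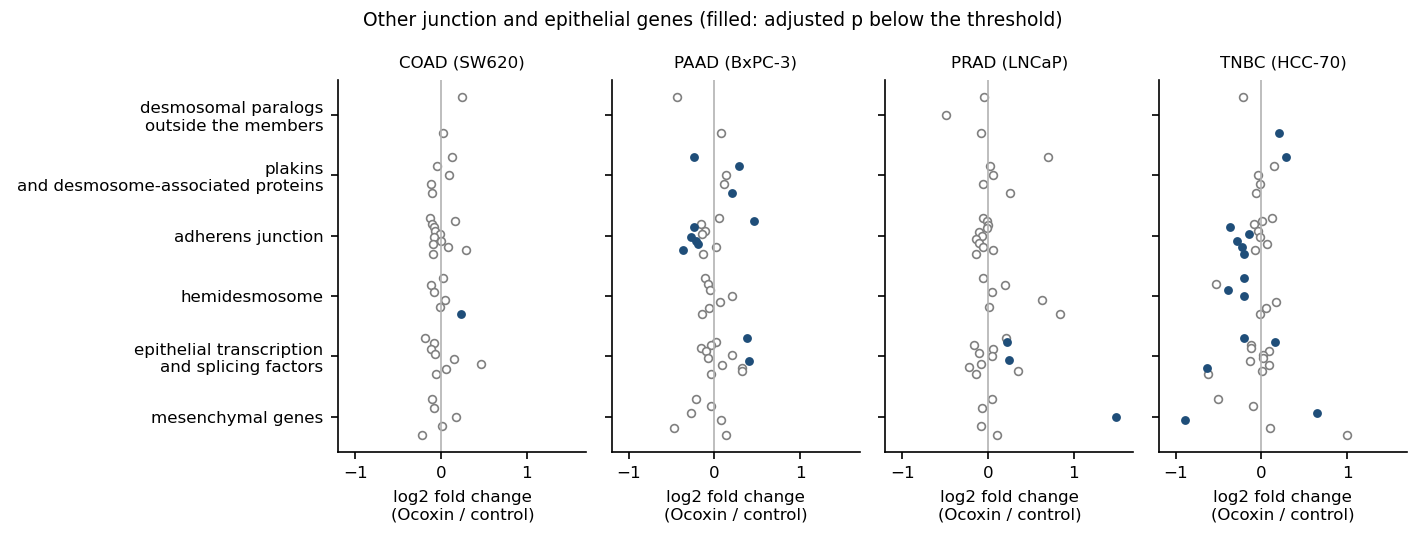
Log2 fold change of Ocoxin over control for the tested genes of 6 lists, one panel per cell line, each point a gene and filled points those with an adjusted p below 0.05. Adherens junction genes with filled points lie left of 0 in TNBC and, but for ARVCF, in PAAD, and the far right point in PRAD is SNAI2.

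The genes whose pattern was most like that of PKP1 were sought over the 24 libraries, as the correlation of log2 CPM after the mean of each line was subtracted, among 11600 genes. The closest were GNAI1, a G protein subunit (Pearson r = 0.854), KYAT3 (r = 0.806), BTG1 (r = 0.784), IST1 (r = 0.759) and ECE1 (r = 0.746). Deviations were not scaled within a line, so the line in which PKP1 differed most, PRAD (log2 fold change -1.69), weighs most. Correlations within single lines were not computed. Treatment, and in COAD depth too, differed between the libraries of a line, which can by itself make genes correlate. These values are therefore a description of likeness and have no p-value.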

How the data were processed

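Counts per gene from 24 mRNA libraries were used, grouped by line and treatment from their titles. The authors used fastp for trimming, STAR for alignment (hg38), picard to take out PCR duplicates and featureCounts 2.0.3 to count primary alignments on exons. The deposited values are raw counts, in a table of the 6 PRAD libraries (single-end option) and one of the other 18 (paired-end option), neither using strand nor counting read pairs as 1. Exonic lengths came from the deposited tables.

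Each line was fitted alone in R 4.3.3 with edgeR 4.0.16 (filterByExpr, TMM, robust quasi-likelihood F-test, two-sided), and p-values were adjusted over all genes of the line by Benjamini-Hochberg. The fit was first tested on simulated counts. In these, every gene had the same extra spread and libraries with the same number were not paired. That test therefore does not cover paired libraries or genes that differ in spread. An exact permutation test of 3 against 3 libraries cannot go below 0.1 and was not used. RPKM levels used TMM over the libraries of 1 table.

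Deviations from group means (genes with mean log2 CPM above 3) correlated between same-numbered control and Ocoxin libraries at 0.284 to 0.596 in PAAD, 0.172 to 0.601 in PRAD and 0.285 to 0.627 in TNBC, so numbers were taken to pair libraries in these 3 lines but not in COAD.

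Alternatives were DESeq2 1.42.0, its size factors, other low-count filters, the replicate block, removal of each library's trend with exonic length and GC content, and leaving out each library. The removal together with the block, and library totals for levels, were added after seeing the data. The members and lists were chosen with earlier results of these data known. All 10 members and 4 paralogs are named, and of the 48 other genes the 4 called ones with the largest absolute fold change in each line, the 5 genes most like PKP1, and markers. Some results are not reported here.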

Additional observations from a re-analysis of the deposited data

Results flagged for a closer look

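For 3 of the 10 desmosome genes, every Ocoxin library of one line lay above all its controls while every Ocoxin library of another line lay below all of its controls. None of these differences between lines was tested, and how many of all genes did the same was not counted. Within a line, control and Ocoxin levels did not overlap for 19.8% to 38.0% of all genes. The members were also chosen with these contrasts, including the different signs of PKP1. PKP1 had a log2 fold change of 0.61 in COAD and -1.69 in PRAD, a difference of 2.30. Its counts per library were 56 to 88 in COAD and 12 to 73 in PRAD. DSC3 had 0.28 in TNBC and -0.46 in PAAD, a difference of 0.73, at 5395 to 16328 counts per library. DSC2 had 0.22 in COAD and -0.47 in PAAD, a difference of 0.68.

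The same held for 4 of the other junction genes named, likewise untested and without a count over all genes. OVOL1 differed by 1.00 between PRAD and TNBC, KLF4 by 0.61 between COAD and TNBC, ELF3 by 0.58 between PAAD and TNBC, and ESRP1 by 0.30 between PRAD and COAD, all as differences of log2 fold changes. With 3 libraries a group, a group of 3 was not searched for single libraries that stand apart.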

How the results depend on the processing

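All 12 called member values kept their sign in all 155 alternative values and their call in 134 of these. Each alternative used the same libraries or all but 1 of them, and the 12 values were picked as called. These numbers are therefore a description and no independent support, and the matching rate over all called genes was not computed. Member calls went from 1 to 3 in COAD, 5 to 8 in PAAD and 1 to 2 in PRAD with the replicate block, and the COAD block changed PKP1 and DSP to called. In COAD same-numbered libraries correlated at 0.079 to 0.494, and control replicate 2 was closer to Ocoxin replicate 1 (0.399) than to its own number. This also held in TNBC (0.328 against 0.318), which was taken as paired because every same-numbered pair there exceeded 0.1. The block changed no member's call beyond those given here and above. The COAD block called 10.9% of all genes. Member calls without length and GC trends were 8 in PAAD and 3 in PRAD, where 14% and 14.4% of all genes were called, and with that removal and the block together 8 (PAAD), 5 (PRAD) and 9 (TNBC), with 20.3%, 31.8% and 32.3% of all genes called. Nothing particular to the members is read from these counts, since the contrasts chose them. No filter on low counts gave 2 in PRAD, with 3.28% of all genes called. Leaving out 1 library gave 0 to 1 in COAD, 2 to 6 in PAAD, 0 to 1 in PRAD and 3 to 5 in TNBC. Of all genes, such fits called 0.669% to 4.33% in COAD and 3.64% to 9.77% in PAAD. They called 0.0173% to 2.28% in PRAD and 12.9% to 21.8% in TNBC.

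Calls among the 48 other junction genes (COAD 1, PAAD 11, PRAD 3, TNBC 15) became 4, 22, 6 and 25 with the replicate block. In the same order of lines, the block called 10.9%, 23.1%, 8.50% and 33.9% of all genes. Trend removal gave 2 in COAD, 21 in PAAD and 11 in PRAD, and together with the block 26 in PAAD, 20 in PRAD and 27 in TNBC. Trend removal alone called 4.56% of all genes in COAD. No filter gave 5 in PRAD. Leaving out 1 library gave 0 to 2 in COAD, 4 to 12 in PAAD, 0 to 2 in PRAD and 13 to 17 in TNBC. The shares of all genes called in the other fits are those given for the members. For the named ones, 112 alternative values kept their side of the threshold and 17 lost it. The cause of these shifts was not tested. Levels with TMM were 0.887 to 0.923 times those with library totals in COAD and 1.071 to 1.101 times in PAAD. Library totals in place of TMM changed the order of lines for PKP3 only. PKP1, DSC3 and SNAI2 had under 100 counts per library in PRAD, as PKP1 had in COAD, which limits the precision of these values. Counts of the 2 lines are not like quantities, since read pairs were not counted as 1. The ratio of genes with 2 counts to genes with 1 count was 2.80 to 3.19 in COAD and 0.471 to 0.501 in PRAD.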
